A study of Mus musculus with 8 samples.

Results

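The cytosolic ribosomal protein genes were followed in mouse liver RNA-seq. All gene symbols that begin with Rpl or Rps and a digit were taken, together with Rplp0, Rplp1, Rplp2 and Rpsa. Symbols of the Rps6k kinases, symbols containing -ps and Rps19bp1 were dropped. This left 85 of the 23337 genes in the count files, 52 of the large subunit type and 33 of the small subunit type. The level of the genes was not used to choose them. Liver RNA came from C57BL/6 mice of 12 weeks, either WT or labelled Hrd1-/- (called KO here). Each genotype was sampled after an overnight fast and after 4 h of refeeding, which gave 4 groups of 2 samples. In the KO animals, called HRD1Alb in the study, an Albumin-Cre transgene deletes floxed HRD1 (gene symbol Syvn1), the ubiquitin ligase of endoplasmic reticulum-associated degradation. The Albumin promoter is active in hepatocytes from early liver development, and whether other liver cells lost the gene was not measured here. The sources used here do not say whether the 2 samples of a group came from separate animals, so the p-values measure only the spread between these samples.

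Ribosomal proteins, together with the ribosomal RNAs, make up the small subunit, which reads the messenger RNA, and the large subunit, which joins the amino acids. Their messenger RNAs are abundant and begin with a stretch of C and T (the 5′ terminal oligopyrimidine tract), through which mTORC1 and the RNA-binding protein LARP1 tie their translation to nutrients and insulin. Most of these genes have many processed pseudogenes, which are near-identical copies of the messenger RNA elsewhere in the genome.

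The pyrimidine stretch was looked for at the annotated starts, because it is the sequence feature the family is known for. RefSeq promoters (build GRCm38.p6, the same assembly as the mm10 named in the submitters' processing notes) were listed for 64 of the 85 genes, with 76 starts. A window of 30 bases, 15 on each side of the start, was searched on the sense strand for an unbroken run of 7 or more bases that were each C or T. Such a run was present in 35 of the 76 windows (46.1%), against 18.6% of the windows of all 32847 RefSeq promoters. Runs of 7 or more A or G bases, the same feature on the other strand, were present in 6.58% of the members' windows and in 20.3% of all windows. Windows of members that the results below turn on are printed 5′ to 3′, with the run in capitals and the annotated first base of the transcript at position 16.
Rpl4, chr9:64173372-64173401, plus strand: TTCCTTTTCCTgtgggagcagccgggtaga
Rplp2, chr7:141447636-141447665, plus strand: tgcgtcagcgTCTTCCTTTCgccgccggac
Rps6, chr4:86857353-86857382, minus strand: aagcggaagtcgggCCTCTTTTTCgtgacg
Rpl13a, chr7:45128731-45128760, minus strand: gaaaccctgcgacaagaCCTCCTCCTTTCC
Rpl12, chr2:32961697-32961726, plus strand: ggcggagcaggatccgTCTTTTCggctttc
Rpl22l1, chr3:28805493-28805522, plus strand: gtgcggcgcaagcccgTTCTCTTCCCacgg
Rpl7l1, chr17:46782642-46782671, minus strand: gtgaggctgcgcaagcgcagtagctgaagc
In Rps6 and Rplp2 the run spans the annotated start, in Rpl4 it ends before it, and in Rpl13a, Rpl12 and Rpl22l1 it begins just after it. The window of Rpl7l1, a paralog of Rpl7 that differed from the family in several comparisons below, held no run of that length. The windows of Rplp0, Rps3, Rpsa and Rpl10 held none either, and over the family 41 of the 76 windows held none, so this does not set Rpl7l1 apart. The absence of a run says only that these letters are not in this window.

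Libraries held 40210576 to 49117080 counts, so that 3 counts corresponded to 0.0611 to 0.0746 CPM, the counts scaled to a fixed library total. The targeted gene was checked first, in TMM-normalized CPM. Syvn1 was at 110.7 and 99.8 in WT fasted, 32.6 and 31.5 in KO fasted, 637 and 305 in WT refed, and 453 and 132 in KO refed liver. It was lower in both KO fasted samples than in both WT fasted samples (log2 fold change −1.72, SE 0.56, edgeR adjusted p = 0.170). The refed samples overlapped (−0.69, SE 0.55, edgeR adjusted p = 0.391), so in refed liver the transcript does not check the labels, and directions there are those of the libraries labelled KO. The second library labelled KO refed stood apart from the other 7: its values fell with transcript length, with a Spearman correlation across genes of −0.53 between length and the ratio to the mean of all libraries, against 0.0394 to 0.248 in the others. The levels and medians of the family in refed KO liver are therefore given for each of its libraries as well as for the fit on both.

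Ribosomal protein genes took a larger share of the counts in the libraries labelled KO than in WT libraries, in both feeding states. The share was 0.357% and 0.404% in WT fasted, 0.707% and 0.692% in KO fasted, 0.419% and 0.441% in WT refed, and 0.891% and 1.48% in KO refed liver. All 4 KO values were above all 4 WT values. The group mean was 1.84 times higher in KO than in WT fasted liver, and 2.76 times higher in refed liver. The first KO refed library alone was 2.07 times and the second alone 3.45 times the WT refed mean. Exact binomial 95% intervals, which cover counting error only, ran from 0.355% to 0.358% for the lowest share and from 1.48% to 1.49% for the highest. With 2 samples a group, the smallest p an exact permutation test allows is 0.333, so the shares were not tested. Between the genotypes, fewer counts on very abundant liver genes went with the higher share. Within each group, the library with more of these counts had the higher share. The 50 most abundant other genes took 36.1% and 37.6% of the counts in WT fasted against 31.1% and 30.6% in KO fasted liver, and 32.8% and 33.2% in WT refed against 26.4% and 31.0% in KO refed liver. With these 50 genes left out of the total, the share of ribosomal protein genes was 0.558% and 0.647% in WT fasted, 1.03% and 0.997% in KO fasted, 0.623% and 0.660% in WT refed, and 1.21% and 2.15% in KO refed liver.

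**Figure D1:**
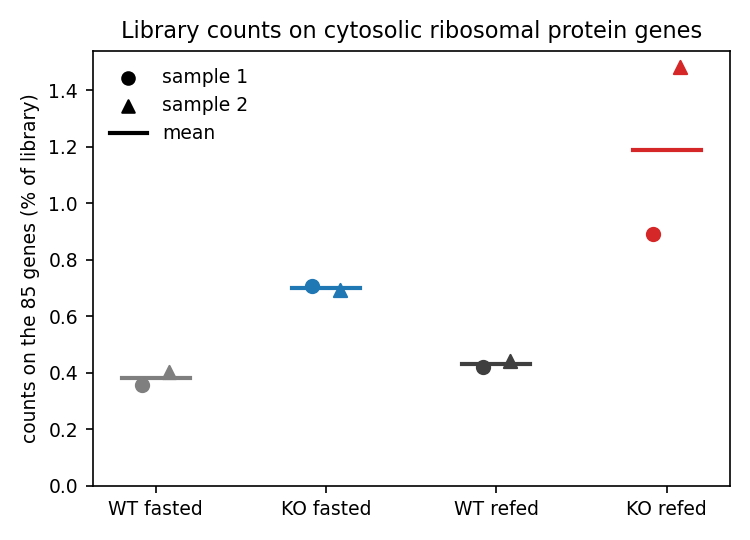
Counts on the 85 ribosomal protein genes as a percentage of all counts in a library (vertical axis), for the 2 samples (circle and triangle) and the mean (bar) of each group. The KO fasted samples sit at 0.707% and 0.692%, above every WT sample, and the second KO refed sample sits highest at 1.48%.

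Markers of several other liver cell types also differed between the genotypes. Summed levels of 5 Kupffer cell and macrophage markers were 71.9 to 96.2 CPM in the 4 WT libraries and 233 to 392 CPM in the 4 KO libraries. The sums of 7 lymphocyte markers were 5.62 to 9.57 CPM in WT and 16.3 to 23.0 CPM in KO libraries. Those of 5 stellate cell markers were 144 to 272 CPM in WT and 314 to 512 CPM in KO libraries, and those of 4 genes of dividing cells were 2.73 to 3.69 CPM in WT and 10.1 to 16.4 CPM in KO libraries. The sums of 5 endothelial markers were 70.0 to 95.1 CPM in WT and 103 to 130.2 CPM in KO libraries. None of these markers was at 0 in all libraries. The sums of 5 cholangiocyte markers overlapped, at 30.4 to 57.2 CPM in WT and 28.9 to 64.5 CPM in KO libraries. Those of 5 erythroid markers overlapped across feeding states, but within each state both KO libraries were below both WT libraries. In fasted liver they were 62.4 to 72.3 CPM in WT and 22.2 to 49.0 CPM in KO libraries. In refed liver they were 74.7 to 99.8 CPM in WT and 48.5 to 67.0 CPM in KO libraries. Of these 5 markers, 3 (Hba-a1, Hba-a2 and Hbb-b1) were at 0 in all libraries. The sums of 5 hepatocyte markers were 95011 to 115300 CPM in WT and 69404 to 98457 CPM in KO libraries. Ribosomal protein messenger RNA is made in all cell types, and the part of these cells in the results was not tested. In whole liver, a change in the number of cells of a type and a change in RNA per cell cannot be told apart.

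Levels differed widely among the members. Divided by transcript length, among the highest mean levels over the 8 libraries were those of Rplp1 (838 CPM per kb), which forms part of the stalk that recruits elongation factors, Rpl8 (492) and Rpl4 (466). The 10 members with the most counts held 55.2% of the counts of the family, 19 members averaged at least 100 CPM, and 13 averaged under 1 CPM. The low members included genes whose proteins belong to every ribosome. Rpl5 and Rpl11, which carry the small ribosomal RNA of the large subunit and bind Mdm2, were at 0.596 and 1.20 CPM per kb. Rpl26 was listed at 0 in all 8 libraries.

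These low levels went with coding sequence that other genes share. For each member, the share of 50-base windows of its coding region that were also found in a transcript of another gene was computed from the GENCODE M21 annotation. All coding windows were shared for Rpl5, Rpl11, Rps6, Rps27 and 25 other members with ordinary symbols. The median level of these 29 members was 3.82 CPM per kb, and 18 of them averaged under 5 CPM. The 17 members with 100 or more unshared windows had a median of 255 CPM per kb, with none under 5 CPM and 14 at 100 CPM or more. The 31 members between them had a median of 41.3 CPM per kb. Across the 77 members outside the paralog-type symbols, Spearman's rho between CPM per kb and the percentage of shared windows was −0.71, a description across genes that share the same libraries. Exceptions were Rpl13a, at 378 CPM per kb with 97.5% of its windows shared, and Rpl41, at 238 CPM per kb with all of them shared. How the counting treated reads that match several genes is not given in the sources used here. Levels of members with shared windows are therefore uncertain, and no order of levels is drawn from them.

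**Figure D2:**
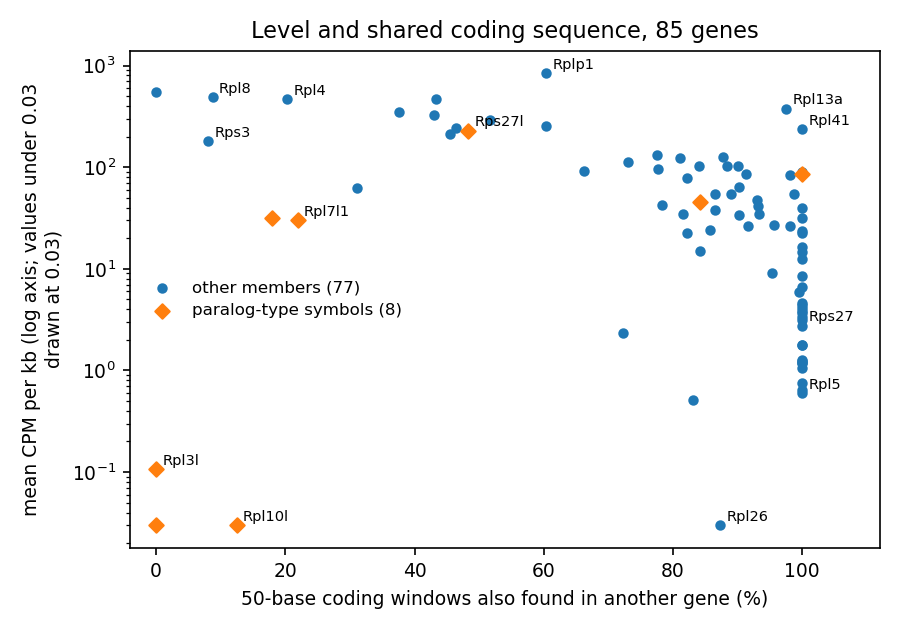
Mean CPM per kb of transcript over the 8 libraries (vertical axis, log scale) against the percentage of 50-base coding windows also found in another gene (horizontal axis), for 77 members with ordinary symbols (circles) and 8 paralog-type symbols (diamonds, Rps4y2 with its whole transcript since it has no coding region). Members at the right edge reach down to under 1 CPM per kb, such as Rpl5, whereas Rpl8 and Rpl4 at the left are at 492 and 466.

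Of the 85 genes, 81 passed the filter on low counts. The other 4 were Rpl26 and the paralog Rpl10l, at 0 counts in every library, Rpl39l, at 0 to 2 counts, and Rpl3l, at 3 to 12 counts. For Rpl26 and Rpl10l a count of 0 allows up to 0.0611 to 0.0746 CPM per library. Rpl3l and Rpl39l had no shared coding window. Rpl10l, Rpl39l and Rpl3l are known from testis and striated muscle rather than from liver.

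HRD1 deletion was first compared in fasted liver. Most ribosomal protein genes were higher in both KO samples, and none of the differences passed the test across all genes. The log2 fold change was above 0 for 76 of the 81 tested members, with a median of 0.48, against −0.02 over all 14328 tested genes. Both KO samples were above both WT samples for 69 members and below them for 2, where 30.6% of all tested genes were above and 34.2% below. With edgeR's quasi-likelihood test on all 8 libraries and Benjamini-Hochberg adjustment over all genes, 0 members were called at an adjusted p under 0.05, where 1.35% of all tested genes were called. Without adjustment, 8 members had a p under 0.05 in the edgeR test. The share of all tested genes at that unadjusted threshold is not given, here or below. DESeq2 called 1 member and limma-trend 0, where they called 7.64% and 1.81% of all genes.

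This count rested on the spread of the refed KO libraries, which enter the shared fit. Without the second KO refed library, 36 members were called higher and 1 lower in fasted liver, where 21.3% of all genes were called. Without the first, 37 were called higher and 1 lower, where 21.7% of all genes were called. With the 4 fasted libraries alone, 27 members were called, all higher, where 14.6% of all genes were called. In these 3 fits the fold changes themselves rest on the same fasted libraries.

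Rpl13a, a large subunit protein also known for a role in translational silencing after interferon, was at 183 and 199 CPM in WT fasted and at 372 and 363 CPM in KO fasted liver. The samples of the genotypes did not overlap, and the log2 fold change was 0.95 (SE 0.31, edgeR adjusted p = 0.169). Rplp1 (0.75) and Rpl4 (0.45) lay in the same direction without passing the test.

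The largest fitted differences among members of at least 1 CPM were those of Rpl12 (log2 fold change 1.08), Rpl13a and Rpl41 (0.94). Rpl12, which sits at the base of the stalk, was at 2.12 and 1.68 CPM in WT fasted and at 3.44 and 4.59 CPM in KO fasted liver. All its coding windows were shared with other genes. At the other end were Rpl7l1 (−0.39), Rpl23a (−0.22) and Rpl15 (−0.19). Rpl7l1 was at 66.3 and 68.9 CPM in WT fasted and at 52.1 and 51.2 CPM in KO fasted liver, with no overlap (SE 0.15, edgeR adjusted p = 0.243). It was the member called lower when the second KO refed library was left out (edgeR adjusted p = 0.0181 in that fit).

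**Figure D3:**
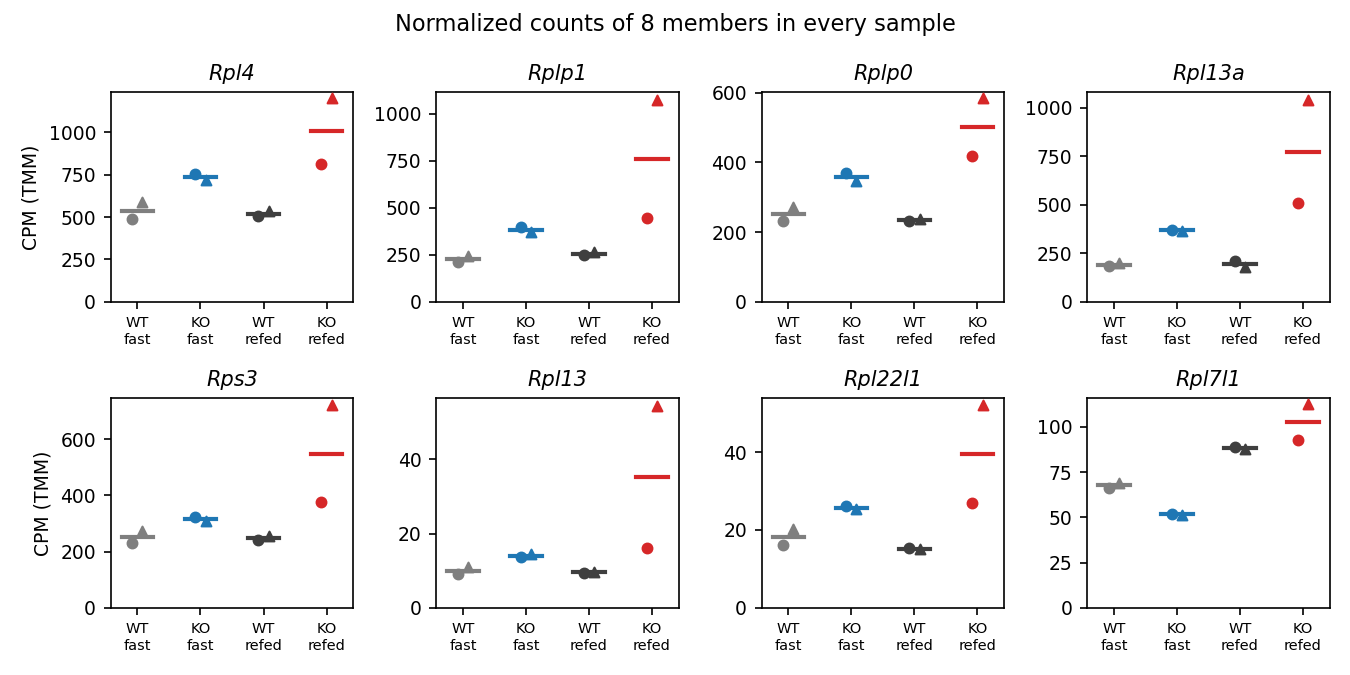
TMM-normalized CPM of 8 members (vertical axes from 0, a panel for each gene) in the 2 samples (circle and triangle) of each group, with the mean as a bar. In 7 panels the KO fasted pair lies above the WT fasted pair, and in Rpl7l1 it lies below, at 52.1 and 51.2 against 66.3 and 68.9 CPM.

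In refed liver, ribosomal protein genes were again higher in the libraries labelled KO. The log2 fold change was above 0 for 80 of 81 tested members, with a median of 1.18, against 0.04 over all tested genes. The edgeR test called 37 members higher and 0 lower, where 11.9% of all tested genes were called, 7.09% of them higher and 4.84% lower. Both KO samples were above both WT samples for 73 members and below them for 1, where 30.7% of all tested genes were above and 30.1% below. The calls held 19 of the 48 tested large subunit members and 18 of the 33 tested small subunit members. Of the 30 members with every coding window shared 8 were called, and of the 51 with some unshared window 29 were called, with median log2 fold changes of 0.99 and 1.25.

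The number of calls depended on which libraries set the spread. Without the first KO refed library it was 70, where 52.8% of all genes were called, and without the second it was 48, where 23.7% were called. It was 2 without either WT fasted library, where 5.28% and 5.11% of all genes were called. It was 1 without either KO fasted library, where 2.83% and 2.91% were called. It was 0 without either WT refed library, where 0.0068% and 0.0136% were called, and 0 with the 4 refed libraries alone, where 0.0% were called. In the fits that leave a group with a single sample, that sample is assumed to vary like the other groups.

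Each library labelled KO refed was then set against both WT refed samples. The first, which shows no comparable trend with length, was above both WT samples for 74 members and below both for 1, with a median difference of 0.60 on the log2 scale, or 1.52-fold. Of all tested genes, 44.2% were above both WT samples in that library. The second was above both for 79 members and below both for 1, with a median of 1.56, or 2.95-fold, where 46.1% of all tested genes were above. Within the KO refed pair, 80 of the 81 members were higher in the second library, by a median of 1.03 on the log2 scale. Of the members, 41 differed by at least 2-fold. Over all tested genes the median of this pair was −0.08, and 22.4% differed by at least 2-fold. In the other groups the median difference of the members between the samples was −0.02 to 0.20. There 1 member in all differed by 2-fold or more, where 2.96% to 7.96% of all tested genes did.

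Ribosomal protein transcripts are short. The tested members had a median transcript length of 775 bases against 2755 over all tested genes, and 65 of the 81 lay among the shortest 10% of all genes. Among those, the median gene was 0.99 above WT on the log2 scale in the second KO refed library and 0.08 above in the first. Among the longest 10% the medians were −0.86 and −0.05. When a smooth trend with transcript length was fitted in each library and entered as an offset, the median difference of the members became 0.51 in the first library and 0.60 in the second, and 0.32 and 0.38 in the KO fasted libraries. With the offset the first KO refed library was above both WT refed samples for 70 members and below both for 2, where 41.2% of all genes with a length were above and 46.6% below. The second was above both for 64 and below both for 12, where 43.0% were above and 46.7% below. The trend is fitted to all genes, so it takes from the members whatever short genes share. With the offset, the refed test called 43 members higher and 1 lower, Rpl23a, with a median log2 fold change of 0.54, and 19.5% of all genes were called. The members called higher without the offset and with it had 30 genes in common. Among them were Rpl4, Rpl13a, Rps3 and all 3 stalk genes. Both fits use the same libraries, so they are not independent, and the share of all genes called higher in both is not given here.

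**Figure D4:**
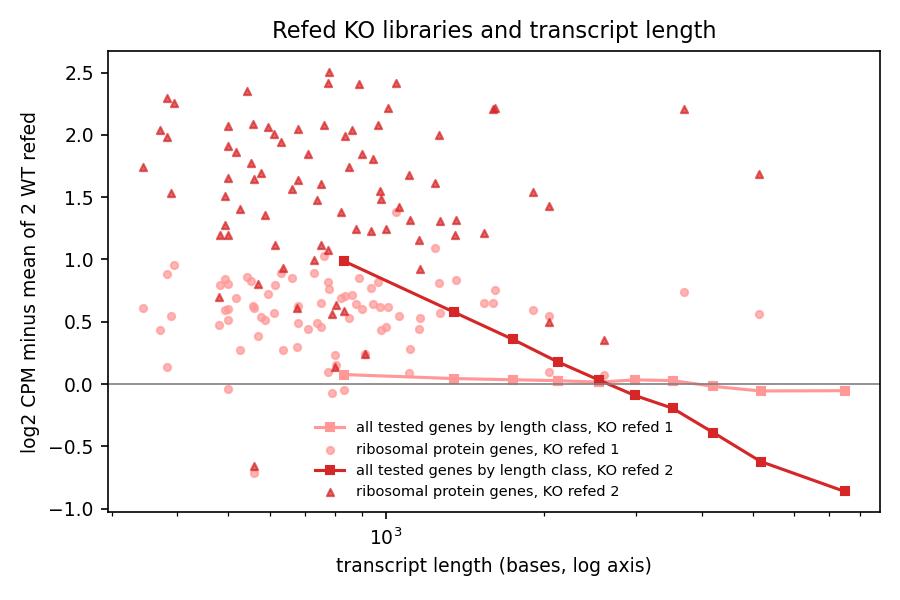
Log2 CPM in each KO refed library minus the mean of the 2 WT refed samples (vertical axis) against transcript length in bases (log axis). Squares joined by lines are medians of all tested genes in 10 classes of length with near-equal numbers of genes, circles (first library) and triangles (second library) are ribosomal protein genes. The line of the second library falls from 0.99 to −0.86, that of the first stays between 0.08 and −0.06, and the circles of the first library lie mostly above its line.

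**Figure D5:**
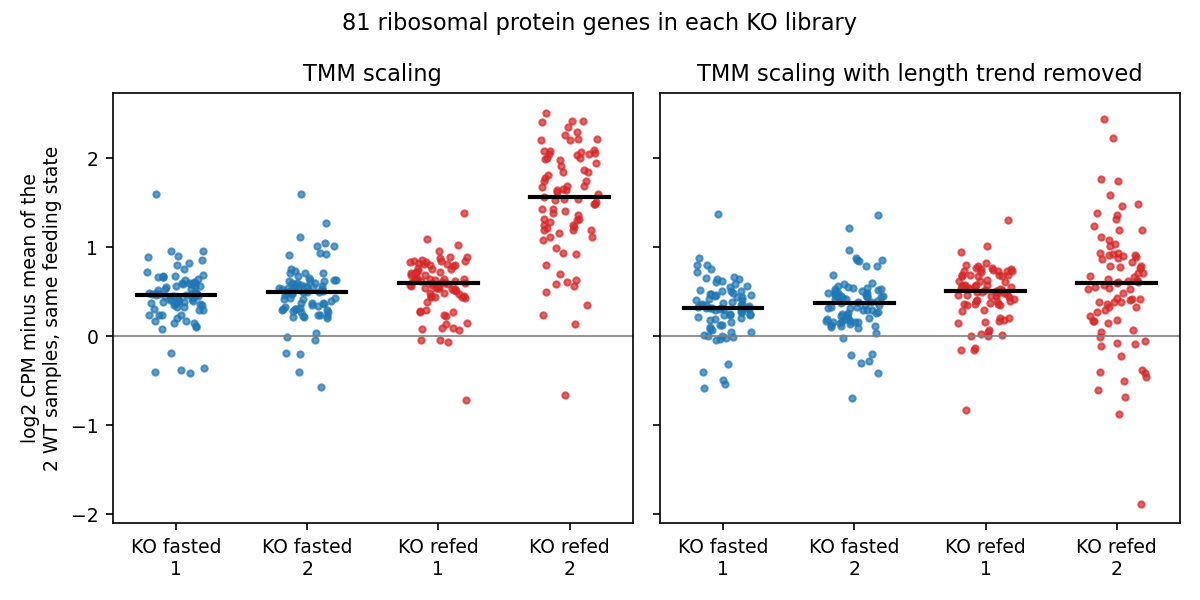
Log2 CPM of 81 ribosomal protein genes in each KO library minus the mean of the 2 WT samples of the same feeding state, with TMM scaling (left) and with a trend with transcript length removed (right). Points are genes and bars are medians, which are 0.46, 0.50, 0.60 and 1.56 on the left and 0.32, 0.38, 0.51 and 0.60 on the right.

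The stalk proteins Rplp0, Rplp1 and Rplp2 were all called in refed liver. Rplp0, the base of the stalk, was at 231 and 238 CPM in WT refed and at 419 and 585 CPM in KO refed liver, with a log2 fold change of 1.10 (SE 0.20, edgeR adjusted p = 0.0216). Both KO samples were well above both WT samples. Rplp1 was at 247 and 265 CPM in WT refed and at 447 and 1074 CPM in KO refed liver (1.57, SE 0.37, edgeR adjusted p = 0.0385). The second KO library was far above the first. Rplp2 was at 52.6 and 54.9 CPM in WT refed and at 94.6 and 227 CPM in KO refed liver (1.58, SE 0.36, edgeR adjusted p = 0.0376), with the same order of samples.

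Rpl13a had the largest fold change of the family. It was at 207 and 182 CPM in WT refed and at 506 and 1037 CPM in KO refed liver, with a log2 fold change of 1.99 (SE 0.32, edgeR adjusted p = 0.0153). The first KO library alone was 1.38 above WT on the log2 scale. Rpl4, the member with the most counts, was at 504 and 535 CPM in WT refed and at 815 and 1202 CPM in KO refed liver (0.96, SE 0.22, edgeR adjusted p = 0.0372). Here too both KO samples were above both WT samples. Rpl8, near the peptidyl transferase centre, was at 283 and 301 CPM in WT refed and at 421 and 977 CPM in KO refed liver, and did not pass the test (1.26, SE 0.36, edgeR adjusted p = 0.0611). Rpl13 (log2 fold change 1.88, edgeR adjusted p = 0.0497) and Rps10 (1.83, edgeR adjusted p = 0.0405) had the next largest fold changes, and for both the second KO library made up most of it, with differences of 2.51 and 2.41 against 0.76 and 0.85 in the first.

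Among small subunit members, Rps3, which forms part of the messenger RNA entry channel, was at 242 and 255 CPM in WT refed and at 375 and 722 CPM in KO refed liver (1.14, SE 0.29, edgeR adjusted p = 0.0474). Rps6, whose protein is a substrate of S6 kinase, was at 8.05 and 8.43 CPM in WT refed and at 12.9 and 19.6 CPM in KO refed liver (0.98, SE 0.25, edgeR adjusted p = 0.0476). In both genes the KO samples did not overlap the WT samples. With the length offset the fold change of Rps6 was 0.44 and did not pass the test (edgeR adjusted p = 0.114). Rpsa, also known as a laminin receptor, was at 51.0 and 54.6 CPM in WT refed and at 82.8 and 244 CPM in KO refed liver and missed the threshold (1.63, SE 0.44, edgeR adjusted p = 0.0541).

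Rpl5 (log2 fold change 0.30, edgeR adjusted p = 0.581), Rpl11 (0.29, edgeR adjusted p = 0.600) and Rpl10 (0.17, edgeR adjusted p = 0.585), which joins the large subunit late in its assembly, did not pass the test. The differences from WT in the first and second KO library were 0.10 and 0.50 for Rpl5, −0.046 and 0.59 for Rpl11, and 0.23 and 0.14 for Rpl10. Rpl23a, at the exit of the peptide tunnel, was the only tested member with a fold change below 0. It was at 1.80 and 2.26 CPM in WT refed and at 1.22 and 1.27 CPM in KO refed liver (−0.70, SE 0.27, edgeR adjusted p = 0.122). All coding windows of Rpl5, Rpl11, Rpl10 and Rpl23a were shared with other genes.

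Paralog pairs were set side by side in refed liver. Rpl22, at 89.2 and 94.7 CPM in WT refed and at 134 and 247 CPM in KO refed liver (1.05, edgeR adjusted p = 0.0490), and its paralog Rpl22l1, at 15.3 and 15.1 CPM in WT refed and at 27.0 and 52.1 CPM in KO refed liver (1.38, edgeR adjusted p = 0.0326), both rose. Rpl7, at 111.5 and 123 CPM in WT refed and at 169 and 222 CPM in KO refed liver, also rose (0.74, edgeR adjusted p = 0.0496). With the length offset its fold change was 0.32 and did not pass (edgeR adjusted p = 0.156). Its paralog Rpl7l1 was at 88.8 and 87.8 CPM in WT refed and at 92.8 and 113 CPM in KO refed liver (0.22, edgeR adjusted p = 0.337). Rps27, all of whose coding windows were shared, was at 0.716 and 0.525 CPM in WT refed and at 0.948 and 2.10 CPM in KO refed liver (1.28, edgeR adjusted p = 0.101). Its paralog Rps27l was at 99.2 and 107 CPM in WT refed and at 100.3 and 236 CPM in KO refed liver, so that only the second KO library was above WT (0.70, edgeR adjusted p = 0.197). Rps4x rose (1.16, edgeR adjusted p = 0.0488), with differences of 0.62 in the first KO library and 1.55 in the second. Rps4y2 (current symbol Rps4l), which is annotated as a transcribed processed pseudogene, did not pass (0.26, edgeR adjusted p = 0.605). Its differences were −0.07 and 0.57 in these libraries. Rpl36a (1.02, edgeR adjusted p = 0.128), at under 1 CPM in every refed library, and Rpl36al (0.95, edgeR adjusted p = 0.0987) did not pass, with differences of 0.80 and 1.20 for Rpl36a and of 0.28 and 1.41 for Rpl36al. Rpl3 rose (0.92, edgeR adjusted p = 0.0441), with differences of 0.57 and 1.20, and Rpl39 did not pass (1.46, edgeR adjusted p = 0.0617), with differences of 0.57 and 2.0. Their paralogs Rpl3l and Rpl39l did not pass the filter on low counts. Differences between paralogs were not tested.

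Refeeding was compared within each genotype. In WT liver no ribosomal protein gene passed the test. The median log2 fold change was 0.07, against 0.00 over all tested genes, 53 of 81 members were above 0, and the edgeR test called 0 members, where 2.61% of all tested genes were called. Without adjustment 3 members had a p under 0.05, and DESeq2 and limma-trend each called 0, where they called 7.89% and 2.83% of all genes. Both refed samples were above both fasted samples for 30 members and below them for 5, where 30.8% of all tested genes were above and 29.6% below. Among members of at least 1 CPM, the highest fold changes were those of Rpl12 (0.99), Rpl10 (0.62) and Rps16 (0.60), and the lowest those of Rpl23a (−0.42), Rps12 (−0.31) and Rps10 (−0.26). Without the first or without the second KO refed library, 3 members were called higher, where 17.2% and 17.0% of all genes were called.

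In KO liver the median log2 fold change with refeeding was 0.87, against 0.02 over all tested genes, with 80 of 81 members above 0. This comparison shares the KO refed libraries with the genotype comparison in refed liver. The edgeR test called 4 members, all higher, where 10.5% of all tested genes were called. Both refed samples were above both fasted samples for 70 members and below them for 1, where 29.2% of all tested genes were above and 29.5% below. Most of the median came from the second KO refed library. The first alone was above the mean of the KO fasted samples by a median of 0.20, or 1.15-fold, with 70 members above both of them, where 44.3% of all tested genes were above. The second was above it by a median of 1.28, or 2.43-fold, with 80 members above both, where 44.2% of all tested genes were. With the length offset the medians were 0.13 and 0.24, and 53 and 52 members were above both and 5 and 16 below both, where 41.8% and 43.8% of all genes with a length were above and 43.1% and 45.1% below. The number of calls was 68 without the first KO refed library, where 51.4% of all genes were called, and 7 without the second, where 19.7% were called. It was 1 when any single WT library was left out, where 4.43% and 4.66% of all genes were called without a WT fasted and 3.05% and 3.1% without a WT refed library, and 0 without either KO fasted library, where 0.102% and 0.239% were called.

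The 4 members called were Rpl7l1, Rpl12, Rpl10a and Rps7. Rpl7l1 was at 52.1 and 51.2 CPM in KO fasted and at 92.8 and 113 CPM in KO refed liver (log2 fold change 0.99, SE 0.16, edgeR adjusted p = 0.0139). Both refed libraries were well above the fasted pair. In WT liver the same gene went from 66.3 and 68.9 CPM to 88.8 and 87.8 CPM, also without overlap (0.39, edgeR adjusted p = 0.273). Rpl12 (1.27, edgeR adjusted p = 0.0394), Rpl10a (0.95, edgeR adjusted p = 0.0472), in the stalk of the large subunit where spent tRNA leaves, and Rps7 (1.05, edgeR adjusted p = 0.0425) were at most at 15.6 CPM in any library, and 95.3% or more of their coding windows were shared with other genes. With the length offset Rpl12 (0.85, edgeR adjusted p = 0.0543), Rpl10a (0.44, edgeR adjusted p = 0.370) and Rps7 (0.48, edgeR adjusted p = 0.0803) did not pass the test, and Rpl7l1 did (0.97, edgeR adjusted p = 0.00506). Rpl13 (1.32) and Rpl36 (1.28) had higher fold changes without passing the test, and Rpl23a had the lowest (−0.91).

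The difference of the genotype effect between feeding states was tested as an interaction. The median interaction was 0.71 on the log2 scale, higher in refed liver for 76 of 81 members, and 0 members were called, where 0.0% of all tested genes were called by edgeR. Without adjustment 4 members had a p under 0.05, and DESeq2 and limma-trend each called 0, where they called 0.767% and 0.0% of all genes. Among members of at least 1 CPM, the largest interactions were those of Rps10 (1.45), Rpl13 (1.39) and Rps19 (1.23), and the lowest were those of Rpl23a (−0.49), Rpl10 (−0.30) and Rpl5 (−0.20). Without the first KO refed library 58 members were called, where 33.4% of all genes were called, and the median was 1.13. Without the second the median was 0.13 and 0 members were called, where 0.69% of all genes were called, and with the length offset the median was 0.23.

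Other genes of the translation machinery were taken from fixed lists. Gnb2l1 (current symbol Rack1), a small subunit protein outside the symbol rule, was at 350 and 351 CPM in WT refed and at 588 and 957 CPM in KO refed liver and rose (1.14, edgeR adjusted p = 0.0311). Of 22 elongation and other factors with known pyrimidine tracts, 3 were called higher and 0 lower in refed KO liver, with a median log2 fold change of 0.54. The median difference from WT was 0.35 in the first KO refed library and 0.69 in the second, and 0.30 and 0.09 with the length offset. The called factors ranged from Npm1 (0.79, edgeR adjusted p = 0.0224), a nucleolar chaperone, to the elongation factor Eef1b2 (1.12, edgeR adjusted p = 0.0420). Of 9 host genes of small nucleolar RNAs, 5 were called higher and 0 lower, with Snhg1 highest (1.45, edgeR adjusted p = 0.0156). Their median difference was 0.79 in the first library and 1.46 in the second, and 0.68 and 0.34 with the length offset. Of 45 ribosome biogenesis factors 14 were called higher and 0 lower, from Nop2 (0.63, edgeR adjusted p = 0.0390), a ribosomal RNA methyltransferase, to the transcription factor Myc (1.77, edgeR adjusted p = 0.0379). Their median difference was 0.53 in the first library and 0.49 in the second, and 0.50 and 0.39 with the offset. Myc did not pass the test with the offset (1.53, edgeR adjusted p = 0.0662). Of 18 genes that control translation through mTORC1, 1 was called, Pdcd4, an inhibitor of the helicase Eif4a, which fell by 0.90 on the log2 scale (edgeR adjusted p = 0.0272). The median difference of these 18 genes was −0.15 in the first library and −0.61 in the second, and −0.16 and −0.05 with the offset. These counts stand against 7.09% of all tested genes called higher and 4.84% called lower.

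In fasted liver 0 genes of these lists were called, where 1.35% of all tested genes were called. With refeeding, Rrp9, a factor that processes ribosomal RNA, rose in both WT (1.12, edgeR adjusted p = 0.0281) and KO liver (1.92, edgeR adjusted p = 0.00364). In KO liver 15 of 45 biogenesis factors and 9 of 76 mitochondrial ribosomal protein genes were called higher with refeeding, where 5.43% of all tested genes were called higher. So were 2 of 9 host genes of small nucleolar RNAs and 1 of the 18 mTORC1 genes, Eif4e (0.58, edgeR adjusted p = 0.0466). Mrps6 was highest among the called mitochondrial ribosomal protein genes (1.73, edgeR adjusted p = 0.0111). With the length offset it was at 1.16 (edgeR adjusted p = 0.00393). Both refed samples were above both fasted samples for 36 of 45 biogenesis factors and 66 of 76 mitochondrial genes, where 29.2% of all tested genes were. These calls rest in part on the second KO refed library. Each library alone and the offset are given for these lists only against WT refed.

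Mitochondrial ribosomal proteins and nuclear-encoded oxidative phosphorylation subunits also have short transcripts, with median lengths of 1224 and 809 bases, and were set beside the cytosolic family. In fasted liver their median log2 fold changes were −0.11 (76 genes) and −0.19 (73 genes), against 0.48 for the cytosolic members. In the first KO refed library their median differences from WT refed were −0.02 and −0.28, against 0.60, and 24 of 76 and 1 of 73 genes were above both WT samples, against 74 of 81. In the second KO refed library the medians were 0.91 and 1.03, against 1.56, and with the length offset 0.14 and −0.02, against 0.60. No gene of either list was called by edgeR between genotypes, where 1.35% of all tested genes were called in fasted and 11.9% in refed liver. At an unadjusted p under 0.05 in the edgeR test there were 4 and 1 genes in fasted and 17 and 4 genes in refed liver. The differences between the lists were not tested.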

How the data were processed

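Whole-number read counts per gene symbol, unnormalized, were deposited by the authors, with a file for each of the 8 samples. Each sample ran on its own NextSeq lane. The submitters' processing notes name cutadapt, STAR, HTSeq, DESeq2 and mm10, whereas the study's methods name ERANGE, so the counting step is uncertain. Strand and annotation are not given in the sources used here. Samples were grouped by their labels.

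Genes kept by filterByExpr (minimum count 10, minimum total 15; 14328 of 23337) were fitted with edgeR 4.0.16 in R 4.3.3, with TMM scaling and a coefficient for each of the 4 groups. Quasi-likelihood tests were adjusted by Benjamini-Hochberg over all genes and called at 0.05. limma 3.58.1 and DESeq2 1.42.0 were alternatives. CPM are TMM-normalized unless given as shares, per kb or marker sums. GENCODE M21 (85 of 85 members matched) gave lengths and coding regions.

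Members and lists were chosen with earlier results of these data known. Named genes were the stalk genes, Rpsa, Rps6, Rpl5, Rpl11, Rpl13a, Rps3, Rpl26, paralog pairs, the 5 members highest in CPM, the 3 highest and lowest fold changes of each comparison at 1 CPM or more, and all members called where at most 5 were. Called extremes of the other lists were also named, but not all of them. Some members are not reported here by name, and remain in the counts and medians.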

Additional observations from a re-analysis of the deposited data

Results flagged for a closer look

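Each of 5 members moved in opposite directions in both samples of the groups compared. With 2 samples a group such patterns are common: opposite genotype effects without overlap were present in 5.7% of all tested genes. Rpl7l1 was lower in KO fasted (log2 fold change −0.39) and higher in KO refed liver (0.22) than in WT, with an interaction of 0.61 (SE 0.22, edgeR adjusted p = 0.583). Rpl15 was lower in KO fasted (−0.19) and higher in KO refed liver (0.41), with an interaction of 0.60 (SE 0.27, edgeR adjusted p = 0.599). With refeeding, 3 members fell in both WT samples and rose in both KO samples. The 5.7% does not cover this pattern, and its share over all genes is not given here. Their interactions were 1.45 for Rps10 (edgeR adjusted p = 0.587), 0.94 for Rps12 (edgeR adjusted p = 0.590) and 0.87 for Rpl22l1 (edgeR adjusted p = 0.601). None of the 5 passed the test across all genes. Leaving out the first KO refed library leaves the library with the length trend as the KO refed sample. The interactions were then 0.74 for Rpl7l1, 0.82 for Rpl15, 2.02 for Rps10, 1.24 for Rps12 and 1.27 for Rpl22l1. Without the second they were 0.46, 0.34, 0.46, 0.57 and 0.33.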

How the results depend on the processing

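The median log2 fold change of the members stayed above 0 under every alternative in 4 of the 5 comparisons. For refeeding in WT liver it ran from −0.04 to 0.22. Each number of members called is followed by the percentage of all genes that the same fit called. In fasted liver, 5 members were called with the length offset (6.16%), 3 with the offset and the replicate block (4.9%), 27 with the 4 fasted libraries alone (14.6%), 1 by DESeq2 (7.64%) and 2 by a fold rule of unadjusted p under 0.05 and at least a 2-fold difference (8.35%), against 0 in the shared fit (1.35%). In refed liver, 0 were called with the 4 refed libraries alone (0.0%), 19 by limma-trend (12.1%) and 57 by DESeq2 (22.2%), against 37 (11.9%). For refeeding in WT liver, 1 was called with its 4 libraries alone (14.0%), against 0 (2.61%). For refeeding in KO liver, 0 were called with its 4 libraries alone (0.0%), 21 by DESeq2 (20.8%) and 19 by the fold rule (13.5%), against 4 (10.5%). For the interaction, 2 passed the fold rule (4.48%). The causes were not tested.

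Leaving out 1 library at a time gave 0 to 38 calls in fasted liver, 0 to 70 in refed liver, 0 to 3 for refeeding in WT liver, 0 to 68 for refeeding in KO liver and 0 to 58 for the interaction. The highest numbers came without the first KO refed library, and 3 for WT refeeding also without the second. Those fits also called a larger share of all genes than the shared fit did, and the percentages are given with each comparison above. For refeeding in WT liver, they called a smaller share of the members than of all genes. Over the libraries left out, the median log2 fold change of the members ran from 0.40 to 0.57 in fasted liver and from 0.59 to 1.56 in refed liver. RLE scaling, TMM without the members and both other filters on low counts left the number of calls within 1.5 times in every comparison.

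The genotypes and feeding states share replicate numbers, but same-numbered samples deviated together only weakly (correlations 0.02 to 0.18 over 6 pairs of groups, mean 0.07), so the numbers were not taken as pairs. With the replicate block 0, 26, 0, 4 and 0 members were called in the fasted, refed, WT refeeding, KO refeeding and interaction tests, where 0.831%, 9.74%, 2.13%, 9.37% and 0.0% of all genes were called.

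Of 1250 values of named genes under the alternatives, 966 kept direction and call, 203 lost the call, 67 gained it and 14 changed sign. In refed liver, Rpl11 was at −0.26 with the length offset and −0.27 with the offset and replicate block, Rps27l at −0.12 in both, Rpl10 at −0.29 and −0.31, and Rps4y2 at −0.31 and −0.32. Over the libraries left out, Rpl11 ran from −0.063 (without the second KO refed library) to 0.58, Rps27l from −0.044 (the same library) to 1.19, Rps4y2 from −0.092 (the same library) to 0.54, Rpl10 from −0.016 (without the first WT refed library) to 0.38, and the interaction of Rpl5 from −0.63 to 0.10 (without the second WT fasted library), and it was 0.02 without the second WT refed library. None of these values passed the test, except Rps27l at 1.19 without the first KO refed library. Depth limited members near the floor of 3 counts. Whether it also limited members with more counts was not tested. Standard errors in refed liver were 0.40 for Rpl36a, at 12 to 42 counts, 0.22 for Rpl4 and 0.36 for Rpl8.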

Other observations

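The symbols containing -ps, left out of the family, were 6, of which Rps19-ps3 had the most counts. It held 21 and 18 counts in WT fasted, 29 and 39 in KO fasted, 32 and 26 in WT refed, and 32 and 75 in KO refed liver. Together the 6 symbols held 20 to 95 counts per library, against 163008 to 682646 counts on the 85 members.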
